A study of Medicago truncatula with 24 samples.

Results

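The lists of H3K27me3 peaks from embryos of Medicago truncatula that matured at 26°C were compared between early stages (S1 and S2) and late stages (S3 and S4). The 4 lists held 21683 peaks on chromosomes 1 to 8, out of 38053 peaks in the 12 peak lists of the series. S1 contributed 5611 peaks, S2 5234, S3 6448 and S4 4390. Touching or overlapping peaks were joined into 17573 places, and a place counted for a side when it overlapped a peak in both lists of that side. By this rule 802 places (4.56% of all places) counted for early, 1152 (6.56%) counted for late, and 256 of them counted for both. A place of both early lists and neither late list is called early-only below, and the converse late-only.

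All embryos came from line A17, the reference genotype of this legume. Plants grew at 20°C by day and 18°C by night until flowering, and the plants of the heat-stress group were then moved to 26°C by day and 24°C by night. Under heat, S1 was dissected at 14 days after pollination, S2 at 17, S3 at 22 and S4 at 28. At 20°C the same stages were taken at 17, 26, 36 and 44 days. Following the study's methods, S1 precedes and S2 follows the acquisition of desiccation tolerance, S3 marks the end of seed filling and the onset of longevity, and S4 is the mature seed. Each condition had 1 immunoprecipitated (IP) and 1 INPUT library, so 2 stages, not 2 replicates, stood on each side. Seeds were pooled for each extraction, the labels give the same 2 harvest years for every library, and fewer seeds were used at S3 and S4 than at S1 and S2, which cannot be told apart from stage. Whole embryos were used, so fewer cells with the mark and less mark per cell cannot be told apart either, and the lists hold no expression against which the embryo label could be checked.

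Trimethylation of lysine 27 on histone H3 is written by Polycomb repressive complex 2 and is read as a mark of silent, often developmentally regulated genes. In plants it typically spreads over whole gene bodies and can be removed by demethylases or diluted when cells divide. In seeds, Polycomb is known for holding the embryonic programme in check after germination and for silencing genes of vegetative and reproductive growth in the embryo. Acetylation of histone H3 (H3ac), the other mark of the series, is associated with open chromatin and transcription. The peaks carry a fold enrichment, the ratio of IP to INPUT signal averaged over the peak, and each gene position below is taken from RefSeq for the same genome assembly (MtrunA17r5.0).

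Early lists covered more of the genome and lay more on genes, and late lists lay more in gene-poor sequence. Early peaks covered 8079841 bp (S1) and 7999391 bp (S2), and late peaks 7132064 bp (S3) and 6920672 bp (S4). The share of peaks that overlapped a protein-coding gene was 36.52% and 34.96% at S1 and S2, and 26.72% and 17.56% at S3 and S4. Both early lists thus lay above both late lists. Protein-coding genes take up 30.53% of the chromosome length, and a level for peaks of these lengths laid anywhere was not computed. The shares are therefore compared between lists only. Gene-poor sequence was taken as the 56 of 428 bins of 1 Mb (13.08%) with fewer than 40 protein-coding genes. These bins held 16.34% and 18.02% of peaks at S1 and S2, and 23.60% and 34.49% at S3 and S4, so that no late list overlapped an early one.

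Peak number did not follow the sides, since S3 had the most peaks and S4 the fewest. By the read totals in the study's description, S3 also had the most IP reads at 26°C and S4 the fewest, and the part of depth in peak number was not tested. Median peak length was 482 bp and 454 bp at S1 and S2, and 442 bp and 509 bp at S3 and S4, again with no order by side. Peaks longer than 10 kb numbered 175 and 182 at S1 and S2, and 99 and 120 at S3 and S4. The median fold enrichment was 3.91 and 3.90 at S1 and S2, and 2.86 and 2.74 at S3 and S4. Fold enrichment depends on the background of each library, and whether that background differed with stage was not tested.

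Late minus early, the means of the sides differed by -13.60 percentage points for the share on protein-coding genes, 11.87 points for the share in gene-poor bins, -1.10 for median fold enrichment and -1013248 bp for covered length. Each of these 4 differences had p = 0.3333 by an exact permutation test over the 6 splits of the lists (two-sided). This is the smallest value that 2 against 2 lists allow, so no measure could pass 0.05. For peak number the difference was -3.500 peaks and for median length 7.500 bp, each with an exact permutation p of 1.000. At 20°C, in libraries not used above, S3 and S4 also had a lower share on protein-coding genes than S1 and S2 (by -13.12 points) and a higher share in gene-poor bins (by 18.00 points). There, however, S2 (14.22% on protein-coding genes) stood with S3 (12.10%) and S4 (11.95%), and S1 (36.06%) stood alone.

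**Figure D1:**
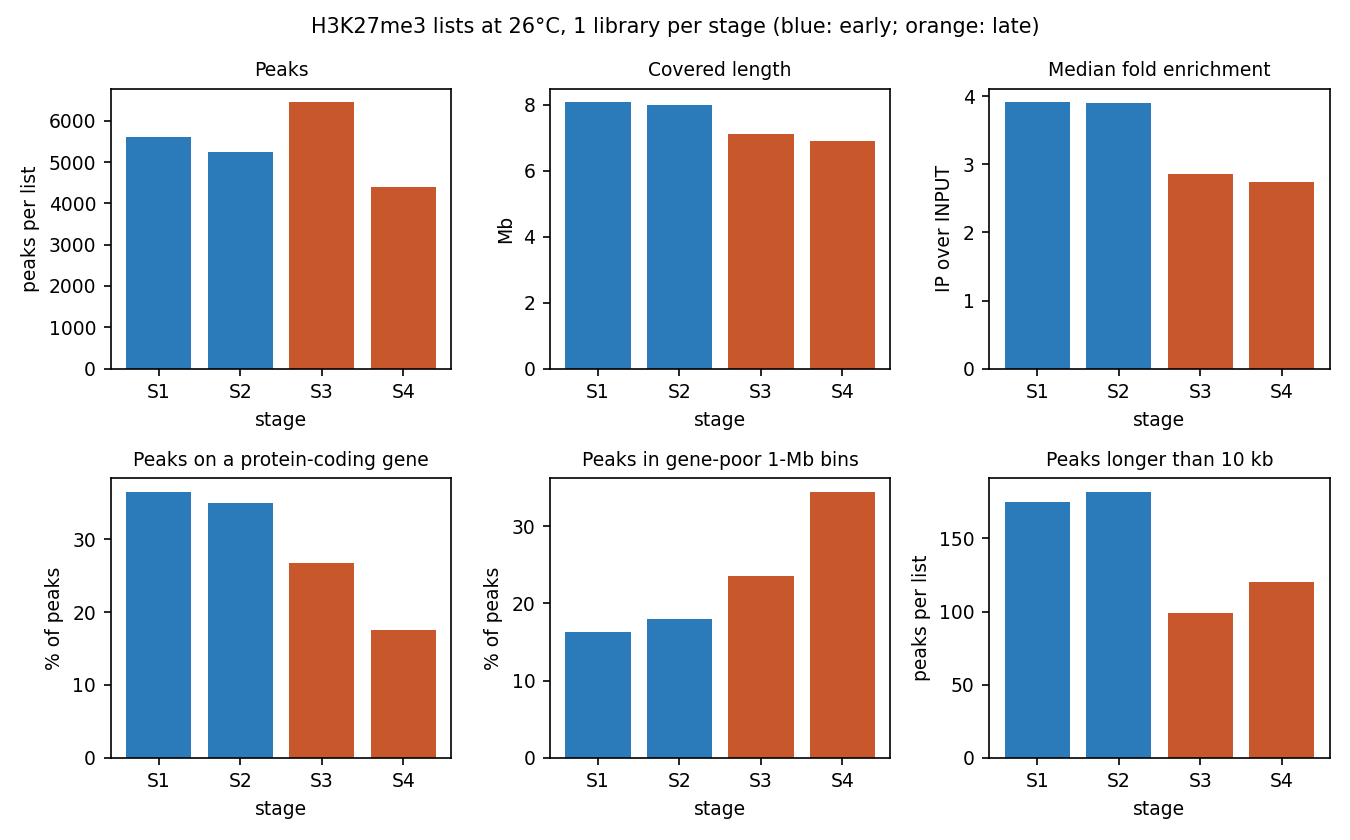
Measures of the 4 H3K27me3 lists at 26°C by stage, 1 bar per list (1 library each, no error bar), for peak number, covered length in Mb, median fold enrichment, the percentages of peaks on protein-coding genes and in gene-poor bins, and the number of peaks over 10 kb. The share on protein-coding genes goes from 36.52% at S1 to 17.56% at S4 and the share in gene-poor bins from 16.34% to 34.49%, whereas peak number is highest at S3 (6448) and lowest at S4 (4390).

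Most places were found at a single stage. Of the 17573 places, 15053 (85.66%) were in 1 list, 1789 in 2 lists, 475 in 3 and 256 in all 4 (1.46%). Places of 1 list were short, with a median of 421 bp, against 11833 bp for places of all 4 lists. A place joins all touching peaks, and a long peak meets others more readily, so this contrast is partly by construction. Among places of 2 lists, the pairs within a side were the most numerous in the lists as deposited. S3 and S4 alone shared 616 places (late-only, 3.51% of all places) and S1 and S2 alone shared 351 (early-only, 2.00%). The pairs across sides were S2 with S3 at 279 places, S1 with S3 at 259, S2 with S4 at 150 and S1 with S4 at 134.

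A further 195 early places had a peak in 1 late list, and 280 late places had a peak in 1 early list. By length, S1 and S2 shared 22.74% of the sequence they jointly covered and S3 and S4 shared 25.66%. Across sides the shared part was 20.10% for S2 with S3, 16.49% for S2 with S4, 15.54% for S1 with S3 and 12.81% for S1 with S4. Adjacent stages shared more than distant ones, and S2 stood closer to the late lists than S1 did.

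Which side held more places depended on the threshold. With fold enrichment of at least 3, early-only places numbered 422 and late-only places 94, fewer than the 160 of S2 with S3 and the 134 of S1 with S3. That threshold kept 4813 and 4456 peaks of the early lists but 2499 and 1235 of the late lists. Keeping peaks whose −log10 p reached 5, the counts were 165 and 105. With the 4390 strongest peaks of each list they were 278 and 534, and with a q-value of at most 0.05 they were 370 and 521. The number of places is therefore given without an order between the sides. The shares of places on protein-coding genes, in gene-poor bins, at S1 and S3 of 20°C and with H3ac, described next, kept their direction between the sides under all 4 of these settings.

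**Figure D2:**
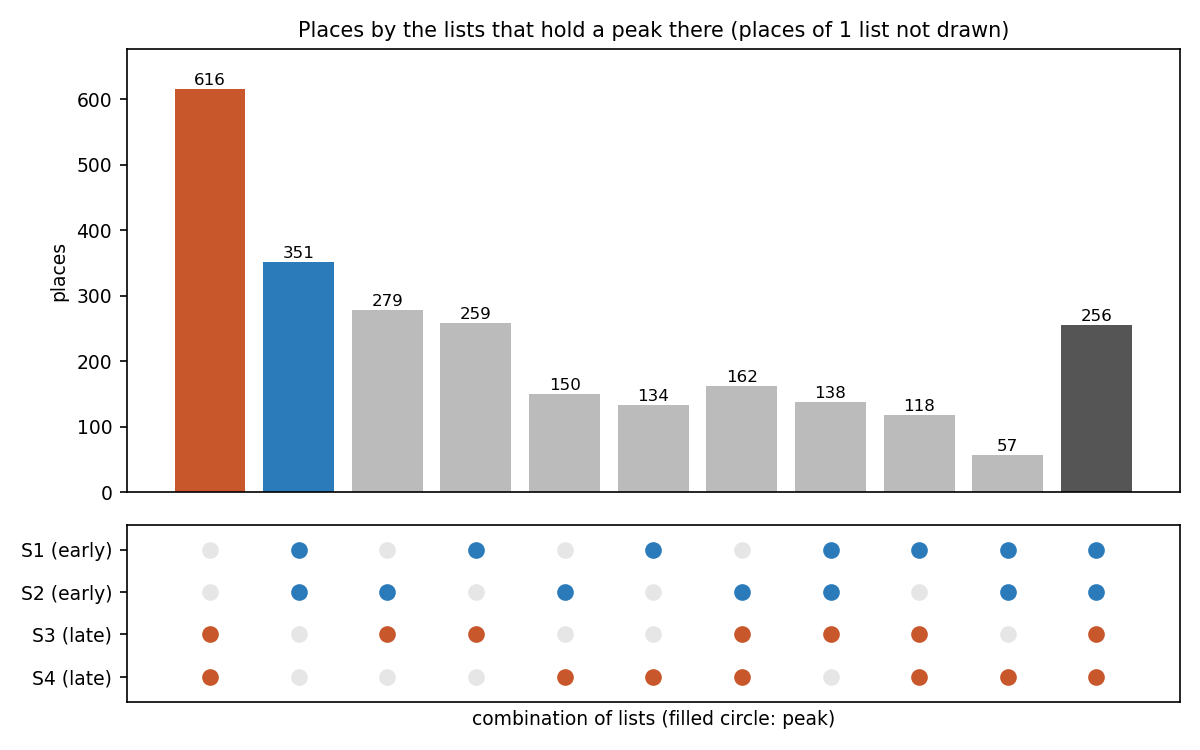
Number of places (bar height) for each combination of 2 or more of the 4 lists, with filled circles below each bar for the lists that held a peak. Late-only places (616) and early-only places (351) are the largest of the 2-list combinations, the pairs across sides range from 134 to 279, and 256 places are in all 4 lists.

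Early-only places overlapped protein-coding genes more often than late-only places did. Of the 351 early-only places, 180 overlapped a protein-coding gene (51.3%, exact 95% binomial interval 45.9 to 56.6%) and 237 lay within 3 kb of one. Of the 616 late-only places, 58 overlapped a protein-coding gene (9.42%, 7.23 to 12.0%) and 137 lay within 3 kb. Over all places the share was 31.7%, and it was 26.4% for the 822 places shared by 1 early and 1 late list. Protein-coding genes take up 30.53% of the chromosome length. Places of all kinds had a median of only 456 bp against 1636 bp for early-only places, and a longer place can meet a gene more readily. The intervals cover counting error only, since each list comes from 1 library. Places outside genes were also farther from them on the late side, with a median distance to the nearest protein-coding gene of 11731 bp for late-only and 5050 bp for early-only places.

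The split was present in each length class. At up to 1000 bp, 44.0% of 116 early-only and 9.09% of 231 late-only places overlapped a protein-coding gene. Above 5000 bp the shares were 67.7% of 99 early-only and 4.08% of 49 late-only places. The longest places were thus those on which the sides stood farthest apart. Of the early-only places 43 exceeded 10 kb, against 10 of the late-only places. Under the 4 settings above, the share on protein-coding genes stayed between 47.39% and 53.96% for early-only places and between 8.51% and 12.38% for late-only places.

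By gene density, late-only places thinned out toward gene-rich sequence far more than early-only places. In bins with 0 to 19 protein-coding genes there were 5.23 late-only and 0.769 early-only places per bin. In bins with 40 to 59 genes the values were 2.09 and 1.10, and in bins with 80 to 99 genes both were 0.711. In the 60 most gene-rich bins, with 100 to 115 genes, they were 0.567 and 0.550. Early-only places were thus densest at 40 to 59 genes and sparsest in the most gene-rich bins. All places together went from 65.0 to 31.6 per bin over the same range. Gene-poor bins held 236 late-only places (38.3%), 44 early-only places (12.5%) and 19.6% of all places. By chromosome, late-only places were densest on chromosome 6, with 2.12 per Mb, where 11 of 43 bins were gene-poor, and sparsest on chromosome 5, with 1.03 per Mb and 2 of 45 such bins. The other chromosomes did not keep this order throughout. Chromosomes 1, 2 and 3 had 1.09, 1.87 and 1.04 per Mb, with 5 of 57, 7 of 52 and 7 of 59 such bins. Chromosomes 4, 7 and 8 had 1.36, 1.73 and 1.49, with 10 of 65, 9 of 57 and 5 of 50. Early-only places ranged from 0.543 per Mb on chromosome 8 to 1.09 on chromosome 3.

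**Figure D3:**
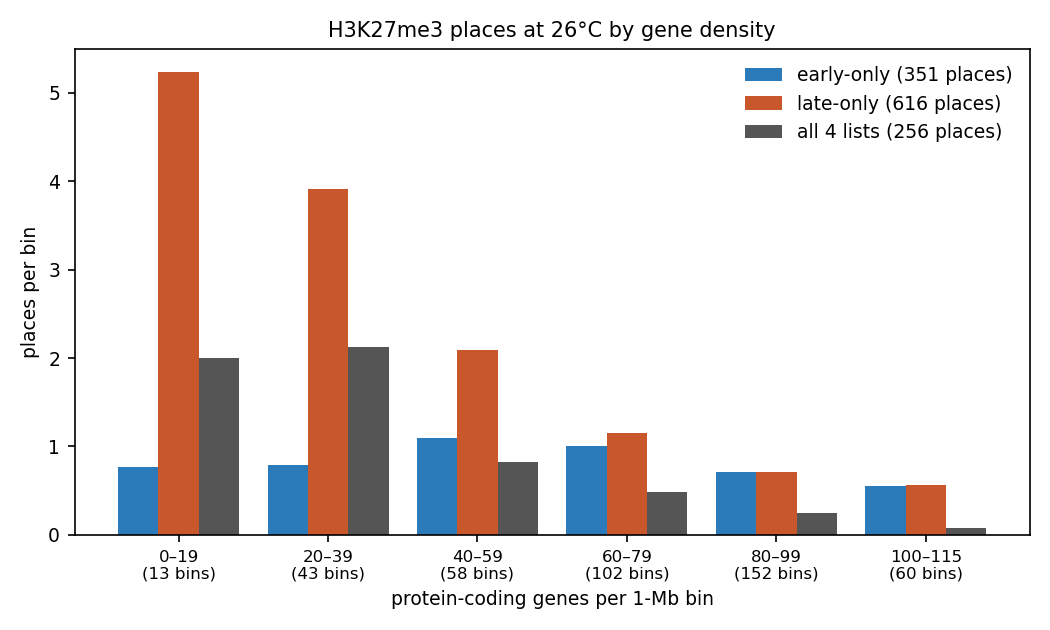
Places per 1-Mb bin (vertical axis) against the number of protein-coding genes in the bin (horizontal axis, with the number of bins of each class) for early-only, late-only and all-4 places. Late-only places fall from 5.23 to 0.567 per bin and all-4 places from 2.00 to 0.0833, while early-only places stay between 0.550 and 1.10.

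The lists at 20°C and the H3ac lists took no part in choosing these places and give a separate reading of them. Early-only places recurred mainly at S1 of 20°C, where 77 of 351 had an H3K27me3 peak (21.94%, exact interval 17.72 to 26.64%). At S2, S3 and S4 of 20°C, 26 (7.41%), 17 (4.84%) and 8 (2.28%) had one. Late-only places showed the opposite order, with 52 of 616 at S1 (8.44%) against 145 at S2 (23.54%), 157 at S3 (25.49%, interval 22.09 to 29.12%) and 98 at S4 (15.91%).

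The 20°C lists are of unequal size, and all 26°C places together had a peak in them at 7.18%, 6.26%, 5.58% and 3.78%, from S1 to S4. Early-only places thus stood above that level at S1 and within their interval of it at the later stages, and late-only places stood above it at S2, S3 and S4 but within their interval of it at S1. Places shared by 1 early and 1 late list stood between both classes at each 20°C stage, at 10.71%, 10.95%, 11.31% and 6.45%. The level over all places was not matched for length. Places of all kinds had a median of 456 bp, against 1636 bp for early-only and 1306 bp for late-only places, and a longer place can meet a peak more readily. Of 139 places of 1 list over 5000 bp, 24.46% had a peak at S1 of 20°C and 7.91% at S3. Between early-only and late-only places, the direction was the same within each of 4 length classes. For places over 5000 bp, 36.36% of early-only and 16.33% of late-only places recurred at S1 of 20°C, and 6.06% against 63.27% at S3. At S2 of 20°C, an early stage by label taken at 26 days after pollination, late-only places were thus the more frequent.

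H3ac was measured at S1 and S2 of 26°C, that is in embryos of the early stages. None of the 351 early-only places had an H3ac peak in either list (exact upper limit 1.045%). Of the late-only places, which had no H3K27me3 peak at these stages, 66 had an H3ac peak at S1 (10.71%) and 31 at S2 (5.03%), and 75 had one in at least 1 of the 2 lists (12.18%). Over all places 2.24% and 1.49% had one. H3ac peaks were more frequent still at the places of all 4 lists, of which 33.98% had one at S1 and 22.66% at S2. Without the places on rRNA genes these shares were 31.98% and 21.46%. All-4 places were far longer (median 11833 bp against 1306 bp for late-only places), and an overlap of 1 bp anywhere in a place counted. H3ac shares were not split by length or by gene content, and the peaks of both marks need not overlap within a place. Of all protein-coding genes, only 0.208% had an H3ac peak at S1 of 26°C and 0.126% at S2. A protein-coding gene was overlapped by 51.3% of early-only but 9.42% of late-only places, so the classes differ in more than H3K27me3. With peaks of a −log10 p of 5 or more, 1 of 165 early-only and 31 of 105 late-only places had an H3ac peak, and with a fold enrichment of 3 or more 5 of 422 and 16 of 94 had one.

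**Figure D4:**
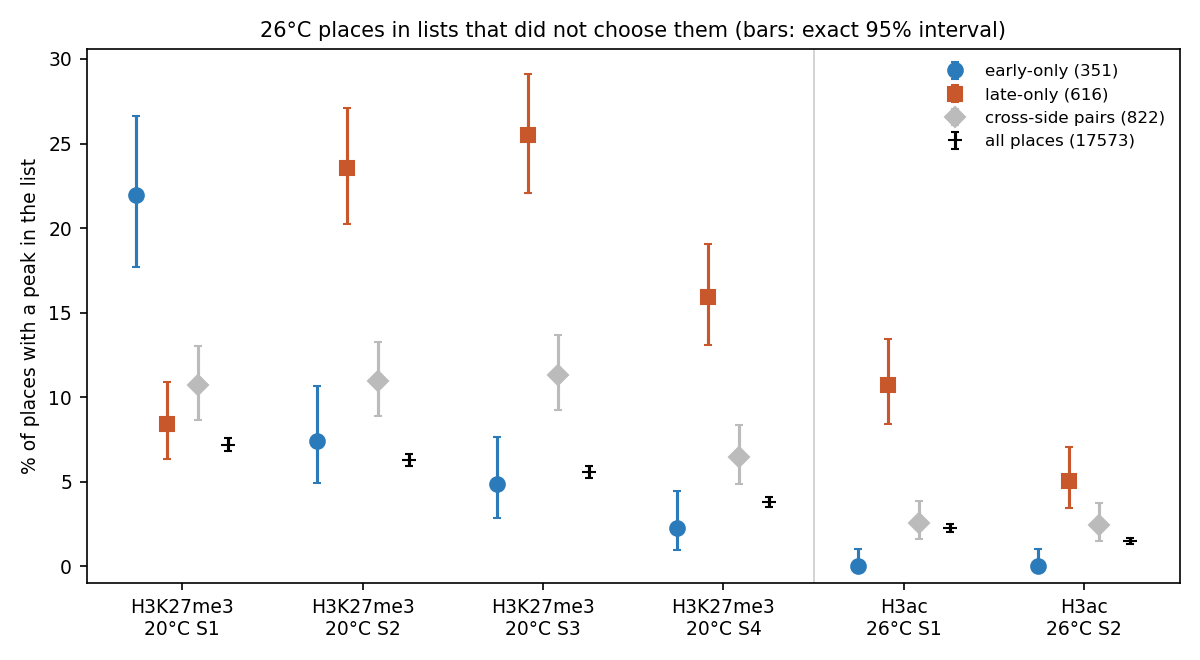
Percentage of 26°C places with a peak in each of 6 lists that did not choose them (4 H3K27me3 lists at 20°C and 2 H3ac lists at 26°C), with exact 95% binomial intervals. Early-only places are highest at S1 of 20°C (21.94%) and at 0 in both H3ac lists, and late-only places are highest at S2 and S3 of 20°C (23.54% and 25.49%).

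Protein-coding genes carried H3K27me3 less often in late lists. Of the 31728 protein-coding genes, 2039 and 1861 were under a peak at S1 and S2, and 1642 and 737 at S3 and S4. Both early lists held 434 of them (1.37%) and both late lists 211 (0.665%). Early-only genes numbered 262 (0.826%), late-only genes 75 (0.236%) and genes of all 4 lists 75 (0.236%). No peak lay within 3 kb in the other side's lists for 228 of the early-only and 61 of the late-only genes. More early-only than late-only genes were counted under each threshold tried, with 135 against 13 at a −log10 p of at least 5 and 271 against 11 at a fold enrichment of at least 3. Leaving out a list makes its side rest on the other list alone, and that side then held more genes by construction: 1487 early-only against 101 late-only without S1, 1652 against 110 without S2, 343 against 496 without S3 and 278 against 1158 without S4.

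Most genes with a peak at one stage had none at the next. Of the genes at S1, 21.3% were also listed at S2, 17.0% of those at S2 at S3, and 12.9% of those at S3 at S4. As shares of the later list, the same genes made up 23.3%, 19.2% and 28.6%. With 1 library per stage, change between stages and disagreement between libraries cannot be told apart. The covered share of the gene span was larger for early-only than for late-only genes. A peak of given length takes up less of a longer gene, and covered length in bp was not compared. The peaks covered a median of 22.6% (S1) and 19.4% (S2) of the span of an early-only gene, and 6.40% (S3) and 10.3% (S4) of a late-only gene. In 53 early-only genes and 1 late-only gene the peaks covered at least 50% of the span in both lists. The peaks of both lists met at the same position in 182 of 262 early-only genes (69.5%) and in 35 of 75 late-only genes (46.7%). Late-only genes were also long, with a median span of 7331 bp against 4160 bp for early-only genes and 3203 bp for all protein-coding genes. A gene can thus be counted for a side through separate short peaks at different positions.

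In the 20°C lists, 50 of the 262 early-only genes had a peak at S1 (19.1%), and 16 (6.11%), 5 (1.91%) and 2 (0.763%) had one at S2, S3 and S4. Over all protein-coding genes these shares were 5.43%, 0.760%, 0.517% and 0.325%. Of the 75 late-only genes 3 had one at S1 (4.00%), and 13 (17.3%), 12 (16.0%) and 5 (6.67%) at S2, S3 and S4. Over the 5045 genes with a peak in any of the 26°C lists they were 11.2%, 3.75%, 2.83% and 1.63%. Early-only genes stood above the latter at S1 (interval 14.5 to 24.4%), and their intervals at S2, S3 and S4 included it. Late-only genes stood above it at S2, S3 and S4. None of the 262 early-only genes had an H3ac peak at 26°C (exact upper limit 1.40%), which does not set them apart from all protein-coding genes (0.208% at S1 and 0.126% at S2). Of the late-only genes 3 had one at S1 (4.00%) and 2 at S2 (2.67%).

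Among the early-only genes, those with the strongest peaks included 2 with known roles in nodules, the nitrogen-fixing organs of legume roots. NOOT2 (LOC25483282, chromosome 1, 20472919 to 20476546) is a BTB-ankyrin co-regulator of the BLADE-ON-PETIOLE family that helps keep nodule identity. A gene is given here by its highest peak in each list, which need not lie at the same position. For NOOT2 this was a fold enrichment of 8.28 at S1 and 9.02 at S2, from different positions. The place where its S1 and S2 peaks met (20473587 to 20474006) had 3.45 and 9.02, and no peak was listed on it at S3 or S4 or at any 20°C stage. ENOD20 (LOC11444178, chromosome 4, 62679049 to 62681830) is an early nodulin of the phytocyanin-like proteins. It had 9.30 at S1 and 7.57 at S2 and likewise no peak in the other 6 H3K27me3 lists. The early peaks on ENOD20 formed 1 place of 608 bp (62680976 to 62681583).

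LOC25491068 on chromosome 3 had the highest value of the 12 genes, 11.0 at S1, and 8.59 at S2 from a separate peak. At the place shared by both lists it had 11.0 and 3.07. LOC25499933 on chromosome 7 had 9.68 and 8.42, and 18.9 at S1 of 20°C. It lies at the edge of a domain of 15517 bp (23831111 to 23846627) that the late lists also held, with 2.79 and 3.01, so it is early-only through the edge of a shared place. LOC11420802 on chromosome 1 had 8.14 and 9.30 in 1 place of 884 bp. Early peaks at LOC11426987 on chromosome 7 had 7.01 and 7.11 in a place of 439 bp. LOC11437082 on chromosome 3, a short gene of 1799 bp, had 8.93 and 6.57, and 4.85 at S1 of 20°C. These genes carry no functional name in the annotation used, so no role is given for them.

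The remaining early-only genes of the 12 with the highest values were LOC11438694, LOC25484132, LOC11423848, LOC11408536 and LOC11438672, with fold enrichments of at least 6.37 in both early lists. In LOC11438694, LOC25484132 and LOC11408536 the S1 and S2 peaks lay at different positions of the gene, and the first of these spans 101746 bp. Of the 12 genes, 9 had peaks that met, 3 had a peak at S1 of 20°C, and none had one at S2, S3 or S4 of 20°C or in the H3ac lists of 26°C.

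The named late-only genes had lower values than the named early-only genes. The 12 with the highest values ranged from 2.86 to 4.45, below each value of the 12 early-only genes. Both sets of 12 were ranked by these same values. The medians of the lists differed in the same direction (3.91 and 3.90 against 2.86 and 2.74). The medians of the places lay near those of their lists, at 4.028 and 3.984 for early-only and 2.885 and 2.781 for late-only places. Late-only genes were thus not shown to be weak for their lists. LOC112418549 on chromosome 1 (20107193 to 20114963) had 3.45 at S3 and 4.45 at S4, with both peaks over the same end of the gene. LOC25483901 on chromosome 1 had 3.43 and 3.15 and was listed at S2 of 20°C with 2.50. LOC25495211 on chromosome 6 had 3.21 and 3.14 (3.21 and 2.73 at the place shared by S3 and S4), LOC11412195 on chromosome 8 had 2.97 and 3.41, and LOC112418152 on chromosome 1 had 2.90 and 3.17. In these 5 genes the S3 and S4 peaks met.

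In the other 7 they did not. LOC11408623 on chromosome 5 had 3.70 in both late lists from separate peaks, and LOC112420105 on chromosome 3 had 3.20 and 3.40, with 2.95 at S2 of 20°C. LOC25489936, LOC11415129, LOC25494137, LOC11444888 and LOC11428875 had values from 2.86 to 3.85. None of the 12 late-only genes had a peak at S1, S3 or S4 of 20°C.

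The 6 genes of all 4 lists with the highest values lay under long shared domains. Among all 75 such genes the peaks of every pair of lists met in 51 (68.0%), and in 32 (42.7%) each list covered at least 50% of the span. LOC120579358 and LOC120579359 on chromosome 3 were covered by 1 domain of 10318 bp (31820300 to 31830617), with 11.4 and 13.3 at S1 and S2, and 9.998 and 11.4 at S3 and S4. LOC11441954 and LOC120580077 on chromosome 4 shared a domain of 24653 bp with 9.39, 13.2, 9.23 and 11.2. Neither domain separated the sides. LOC25480017 on chromosome 5 had 5.45, 7.79, 8.75 and 8.69, and LOC120579495 on chromosome 3 had 7.86, 8.11, 8.39 and 5.25. All 6 genes had a peak at S1, S2 and S3 of 20°C and in at least 1 H3ac list of 26°C, and 5 had one at S4 of 20°C.

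Of the 77 protein-coding genes to which the annotation gives a name, 11 had a peak in any of the 4 lists (14.3%, against 15.9% of all protein-coding genes). Besides NOOT2 and ENOD20, none was early-only or late-only. NOOT1 (LOC11417633), the paralogue of NOOT2, had a peak at S2 with 6.82, at S4 with 2.96 and at S1 of 20°C with 4.91. ENOD16 (LOC11444177), which lies next to ENOD20 on chromosome 4, was listed at S2 with 2.97. CYP81E7 (LOC25493449), an isoflavone hydroxylase, had 4.64 at S1. CCR2 (LOC11424763), a cinnamoyl-CoA reductase of lignin synthesis, had 3.93 at S2, as did RBP2 (LOC11424149).

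AIH (LOC11445422), an agmatine iminohydrolase of polyamine synthesis, had 5.40 at S2. The late stages held DELLA2 (LOC120577405), a repressor of gibberellin responses, with 2.94 at S3, PT4 (LOC25482376), the phosphate transporter of arbuscular mycorrhiza, with 2.95 at S3, and MAT (LOC11435308), an S-adenosylmethionine synthetase, with 2.35 at S4. Each of these was seen at 1 stage and has no second library behind it. By stage, 3 and 7 of the 77 named genes had a peak at S1 and S2 (3.90% and 9.09%), and 2 each at S3 and S4 (2.60%). Of all 31728 protein-coding genes, 2039, 1861, 1642 and 737 had one from S1 to S4. The named genes are too few to be set apart from all genes by stage.

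**Figure D5:**
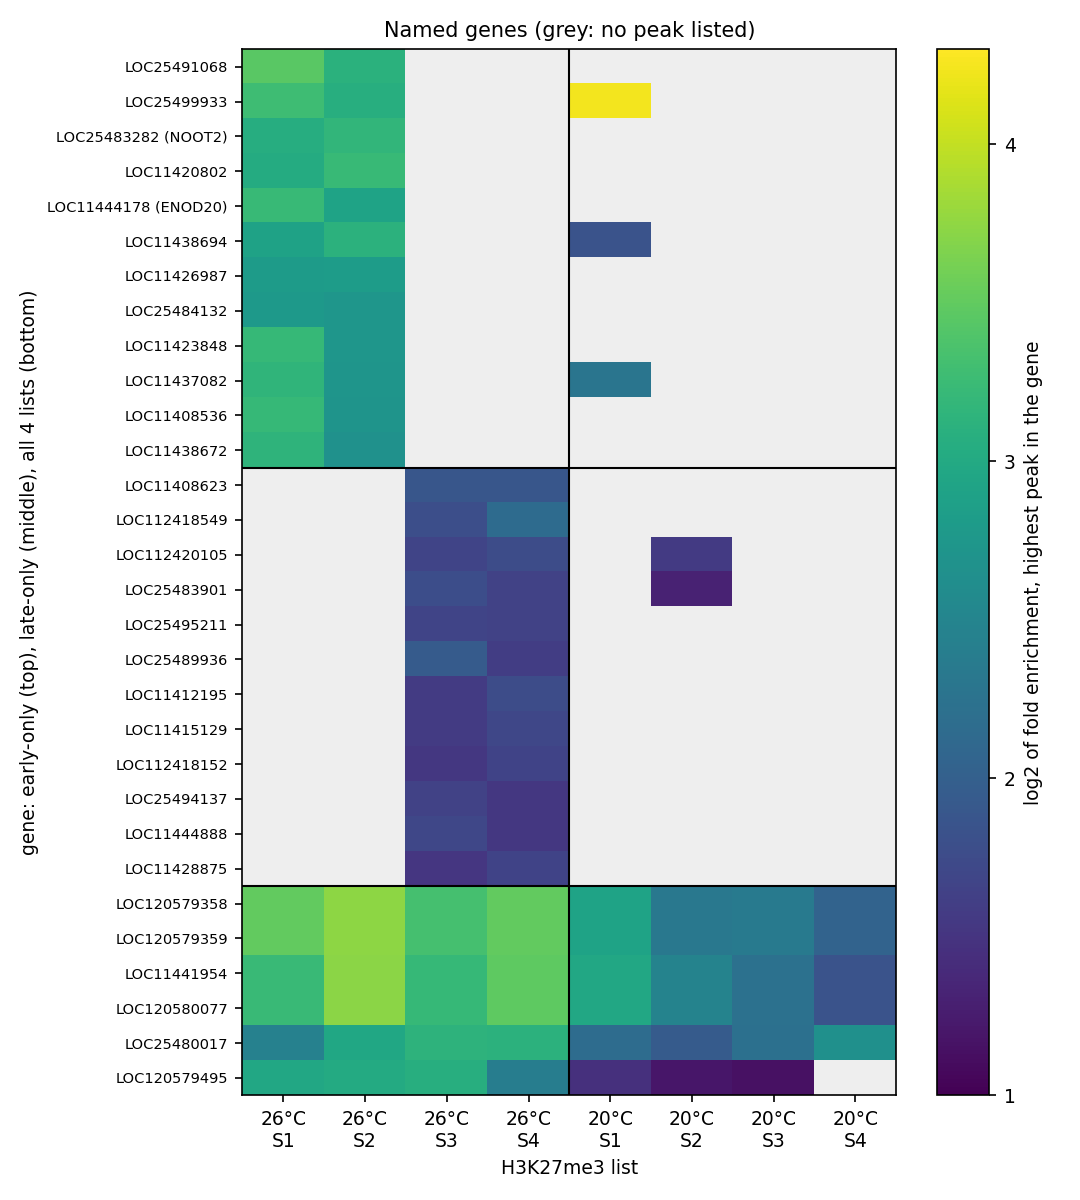
Colour shows the log2 of the fold enrichment of the highest H3K27me3 peak in each named gene (horizontal lines separate 12 early-only, 12 late-only and 6 all-4 genes) in the 4 lists at 26°C and the 4 at 20°C, with grey for no listed peak. The 12 early-only genes carry fold enrichments of 6.37 to 11.0 at 26°C and the 12 late-only genes 2.86 to 4.45, both sets ranked by these values. Of them, 3 early-only genes recur at S1 of 20°C and 2 late-only genes at S2 of 20°C.

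Neighbouring genes shared a class most often among genes of all 4 lists. Places of all 4 lists were also the longest (median 11833 bp), and a single place can cover several neighbouring genes. A level given by length alone was not computed. Of the 75 genes of all 4 lists, 30 had an adjacent protein-coding gene of the same class. Of the early-only genes, 41 (15.6%) had one, with the longest run of 4 genes on chromosome 3 (29939067 to 29956138). Of the late-only genes 2 (2.67%) had one. In all 4 lists the longest run was 7 genes on chromosome 3 (12193923 to 12214130). The longest early-only place spanned 22043 bp on chromosome 5 (20615707 to 20637749) with 3.93 at S1 and 3.92 at S2, and overlapped LOC11436426. Next came a place of 21151 bp on chromosome 7 (8997744 to 9018894) over 3 protein-coding genes, with 5.01 and 4.13. Each of the 5 longest early-only places lay on at least 1 protein-coding gene.

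Of the 5 longest late-only places, 4 lay on none. The longest spanned 19547 bp on chromosome 8 (21979415 to 21998961), 20720 bp from the nearest protein-coding gene, with 2.96 at S3 and 3.17 at S4. It had a peak in each of the 4 H3K27me3 lists at 20°C and in both H3ac lists of 26°C. By the lower of its values, the strongest late-only place was 763 bp on chromosome 4 (24038332 to 24039094) with 5.26 at S3 and 5.46 at S4, in a gene-poor bin and listed at S2 and S3 of 20°C. The highest single late value, 7.59 at S3 (5.05 at S4), belonged to a place of 491 bp on chromosome 1 (21122206 to 21122696).

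Places of all 4 lists made up 1.46% of places but held a far larger part of the length each list covered. Inside them the peaks covered 2232672 and 2484143 bp at S1 and S2, and 2603443 and 2528176 bp at S3 and S4. Each list thus covered 59.9% to 69.9% of the length of these places. Sequence under a peak in all 4 lists at once was not computed. Of these 256 places, 238 (92.97%) had a peak in at least 1 list at 20°C, and 117 (45.7%) lay in gene-poor bins. Their median fold enrichment was 3.68 and 3.75 at S1 and S2, and 3.20 and 3.02 at S3 and S4. Divided by the median of each list it was 0.940, 0.961, 1.12 and 1.10. The direction between the sides thus turned with the scaling, with a median log2 change, late minus early, of -0.22 as listed and 0.26 relative to the list medians. Both late values lay below both early values in 117 places and above in 28 as listed, and in 28 and 116 places relative to the list medians.

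The places of all 4 lists with the strongest peaks included some with lower and some with higher late values. This ranking, by the highest fold enrichment in any list, was chosen after the values were seen. It admits a place through whichever side is high, so differences in both directions are partly built in. Values here are as listed, and the split was not repeated relative to the list medians. Of the 26 shared places that reached a fold enrichment of 10 in any list, 14 had both late values below both early values and 9 had both above. Of the 14, 8 lay on a protein-coding gene and 3 in a gene-poor bin. Of the 9, 2 lay on a protein-coding gene and all 9 in a gene-poor bin.

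Among the places with lower late values, one of 15687 bp on chromosome 4 (4104465 to 4120151) over LOC25491440 had fold enrichments of 61.74, 61.51, 11.93 and 4.26, from S1 to S4. Another of 17246 bp on chromosome 5 (12935983 to 12953228) over LOC11409848 and LOC11408546 had 45.54, 46.35, 12.05 and 4.02. A place of 15554 bp on chromosome 1 (18531156 to 18546709) over LOC25483138 had 32.41, 28.35, 6.54 and 2.57. In each of these S4 was the lowest and S3 the next.

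The places with higher late values were longer and held few genes. One of 58583 bp on chromosome 4 (19615571 to 19674153), 125459 bp from the nearest protein-coding gene, had 53.09, 23.83, 60.73 and 67.35. Another of 113873 bp on chromosome 1 (22803367 to 22917239) had 16.98, 11.30, 29.73 and 43.83, and its only annotated gene was the lncRNA LOC120580935. A place of 39683 bp on chromosome 7 (18471571 to 18511253) had 5.24, 10.89, 25.06 and 39.99. These 3 places were listed in every H3K27me3 list at 20°C and in both H3ac lists of 26°C, and the 3 named places with lower late values in neither H3ac list.

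Counts of ribosomal RNA genes went the other way from those of protein-coding genes. These genes lie in tandem arrays of near-identical copies, whose reads cannot be assigned firmly to 1 copy, so counts of single copies are uncertain. Of 1407 annotated rRNA genes, 269 and 255 were under a peak at S1 and S2, and 558 and 564 at S3 and S4. No rRNA gene was early-only, 231 were late-only and 182 were in all 4 lists. Between S2 and S3, 306 gained a peak and 3 lost one.

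Most of this gain was 1 array on chromosome 6 (20484236 to 20711015, 505 rRNA genes with a median span of 119 bp, as short as 5S genes). Peaks lay on 227 and 211 of its genes at S1 and S2, and on 499 and 500 at S3 and S4. The peaks covered 71.6 kb at S1 in 11 peaks and 64.0 kb at S2 in 8 peaks, against 156 kb at S3 and 157 kb at S4 in 2 peaks each. The highest fold enrichment there was 4.04, 4.64, 6.23 and 8.27, so both late lists exceeded both early lists in extent and in height. A shared place of 141015 bp (20569926 to 20710940) held 459 of these rRNA genes. No late-only place contains an rRNA gene, since a place joins the peaks of all lists.

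The arrays did not all follow. On chromosome 4, an array of 53 rRNA genes (19272755 to 19289532) had peaks on 0, 2, 13 and 13 genes, whereas one of 28 genes (12924697 to 12946614) had 16, 28, 27 and 28. On chromosome 5, of 53 rRNA genes spread between 22743055 and 23922002, 5, 9, 14 and 18 had a peak. The largest array, 765 genes on chromosome 2 (30674202 to 30915992), had 21 at S1 and 5 at each later stage. Over the 9 all-4 places on rRNA genes the median fold enrichment was 3.650, 3.868, 6.004 and 7.565. The 247 all-4 places without rRNA genes had 3.68, 3.74, 3.18 and 2.99. Without rRNA genes the overlap within sides was 22.11% and 23.84% of joint length, and across sides 11.90% to 19.13%.

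Other gene classes gave small counts on both sides. Of 1562 pseudogenes, 18 were early-only (1.15%), 22 late-only (1.41%) and 33 in all 4 lists (2.11%). The shares of protein-coding genes were lower in each class, at 0.826%, 0.236% and 0.236%. Of 2561 lncRNA genes the counts in the same order were 11, 5 and 12 (0.430%, 0.195% and 0.469%). Of 971 snoRNA genes they were 5, 8 and 2 (0.515%, 0.824% and 0.206%). Of 746 tRNA genes they were 2, 1 and 7 (0.268%, 0.134% and 0.938%).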

How the data were processed

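H3K27me3 peak lists from A17 embryos were used as the authors deposited them, with 1 list for each IP library, its matching INPUT as background and no pooling. Per the labels the authors' processing used Trim Galore, FastQC, STAR, Picard, deepTools and MACS2 (versions not given in the sources used here). The deposited columns hold a fold enrichment (ratio of IP to INPUT signal) and, as −log10, a p-value and a q-value. In the broad H3K27me3 lists the authors give averages over each peak. The lists end at a −log10 p of 2.74 to 2.89, so weaker signal is not seen. They hold no read counts, so read depth entered only through the order of the read totals in the study's description, and intervals cover counting error only.

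Intervals were joined and compared with Python 3.11.15, NumPy 2.4.6, SciPy 1.17.1 and pandas 2.3.3, with an overlap of at least 1 bp, and drawn with matplotlib 3.10.9. The interval code was tested on simulated data and checked against bedtools 2.31.1. Genes came from a RefSeq table of the same assembly, which gives 39280 genes on chromosomes 1 to 8 with no strand, product or sequence. Motifs, base composition and families by product name were not analysed here, and biotypes and the genes with a name were used in their place, a choice made after the data were seen. A place or gene was set in a bin by its midpoint.

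Genes were named by rule: the 12 early-only and the 12 late-only protein-coding genes with the highest fold enrichment in their weaker list and no peak within 3 kb in the other side's lists, the 6 highest of all 4 lists, and every gene with a name. Places were named as the 5 longest and the 5 with the highest fold enrichment in their weakest list of each class, of which some are described. The members and lists were chosen with earlier results of these data known. Alternatives were thresholds on −log10 p, q-value and fold enrichment, equal peak numbers, an overlap of 200 bp, joining within 1 kb, all sequences, leaving out rRNA genes, 3 kb flanks and leaving out each list. Differences between sides were tested by exact permutation over lists.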

Additional observations from a re-analysis of the deposited data

Results flagged for a closer look

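The lists also held peaks outside the chromosomes. On plastid and mitochondrial sequence, which carries no histones, the early lists of 26°C held 37 (S1) and 28 (S2) peaks and the late lists 25 (S3) and 33 (S4). The report's comparisons leave this sequence out. By organelle, the plastid had 2, 11, 13 and 15 peaks from S1 to S4 and the mitochondrion 35, 17, 12 and 18. The highest fold enrichment there was 9.87, on the plastid at S3, against 3.72 on the plastid at S1. There is no control list beside these lists, and the source of these peaks was not tested.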

How the results depend on the processing

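No paired analysis was possible because every library carries replicate number 1 and each condition has 1 library. With a −log10 p of at least 5, early-only, late-only and all-4 places numbered 165, 105 and 45, and genes 135, 13 and 32. With a fold enrichment of at least 3, late-only and all-4 places numbered 94 and 76, and genes 11 and 39. With equal peak numbers all-4 places numbered 168. With 3 kb on each side of the gene, the genes were 567, 208 and 129. Fewer peaks or wider genes enter by construction. With 1 list left out, a side rests on a single list, and early-only places ranged from 411 to 4554, late-only places from 738 to 5132 and all-4 places from 303 to 409. Genes ranged from 278 to 1652, from 101 to 1158 and from 91 to 156. Late minus early, peak number ranged from -1032 to 1026 (reversed to 185.0 without S1 and to 1026 without S4) and median length from -26.00 to 41.00 bp (reversed to -6.50 without S2 and to -26.00 without S4). Covered length ranged from -1118944 to -907552 bp, median fold enrichment from -1.17 to -1.04, the share on protein-coding genes from -18.18 to -9.02 points and the share in gene-poor bins from 6.42 to 17.31 points. Joining within 1 kb and all sequences kept each count of places within 1.5 times. An overlap of 200 bp left them at 351, 616 and 256, but a place holds its peaks whole, so only shorter peaks could have changed a count. Leaving out rRNA genes could change only the all-4 places (247), since early-only and late-only places held none. The share of late-only places on protein-coding genes was 12.38% at a −log10 p of at least 5, an alternative chosen after seeing the data, and their share in gene-poor bins was 34.29% there and 34.04% at a fold enrichment of at least 3.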

Other observations

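Unplaced contigs, which the comparisons leave out, carried 41 and 59 peaks at S1 and S2, and 96 and 97 at S3 and S4, over 317967, 349276, 391529 and 481541 bp. The highest fold enrichment on them was 11.84, 13.87, 31.28 and 32.35. Both late lists thus exceeded both early lists in number, length and height on this sequence, whereas their covered length on the chromosomes was lower. The most extreme peak by −log10 p on the chromosomes moved the same way, at 303.37, 457.15, 3248.5 and 7015.3, while the share of peaks whose q-value was 0.05 or lower was 98.52%, 98.55%, 80.66% and 91.44%.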
